A study of Mus musculus with 8 samples.

Results

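Bone morphogenetic proteins (BMPs) are secreted ligands of the TGF-beta superfamily, and 9 mouse genes that supply, block, receive and carry out their signal were followed in cultured cardiac fibroblasts given an adenovirus for hyaluronan synthase 2 (Has2). They were taken by name from a table of 55414 genes. They are the ligands Bmp2, Bmp4 and Bmp6, the secreted antagonist Grem1, the receptors Bmpr1a and Bmpr2, and the inhibitors of DNA binding Id1, Id2 and Id3. All 9 passed the expression filter and were among the 15150 genes tested.

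In the pathway, a BMP dimer joins a type II receptor kinase such as BMPR2 with a type I receptor kinase such as BMPR1A. The type I receptor phosphorylates SMAD1, SMAD5 and SMAD9 (SMAD8), which enter the nucleus with SMAD4 and switch on target genes, of which the Id genes are the classical early ones. Id proteins lack a DNA-binding region and hold E proteins of the basic helix-loop-helix (bHLH) family away from their sites. Gremlin, the product of Grem1, binds BMP ligands outside the cell and keeps them from their receptors. In the heart, BMP signals take part in valve and septum formation, and in fibroblasts they are often studied as a counterweight to TGF-beta.

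Hearts of C57BL/6J mice supplied the fibroblasts, the stromal cells that make cardiac matrix, which were infected at passage 2. The genotype label reads wild type, whereas the treatment protocol speaks of Has2 fl/fl animals; a Cre virus that it also mentions is not analysed here. All cells were starved of serum for 24 h, held with virus for 5 h, and collected after 48 h with bFGF and TGFb, given at 20 ng/mL in the protocol. Controls received a GFP adenovirus and the other cultures the Has2 overexpression adenovirus, with 4 libraries for each virus. In each group replicates 1 and 2 are female and replicates 3 and 4 are male. Both libraries of a number share a preparation identifier. Ages, and whether the preparations came from separate animals, are not given in the labels, so p-values measure the spread between these samples. Female and male preparations belong to separately lettered series, so effects of sex and of series cannot be told apart. TGFb was given to every group, so all levels are those of stimulated fibroblasts.

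Libraries held 46981231 to 55795187 counts. All 11 fibroblast markers were detected in every library, with summed levels of 25530 to 39746 CPM (counts scaled to library size). The cardiomyocyte list summed to 4.33 to 8.98 CPM. The macrophage list, detected in full in every library, summed to 660 to 1569 CPM, and the endothelial list to 25.2 to 47.9 CPM. A list of liver-type secreted proteins summed to 673 CPM in the GFP library of replicate 1 and to 1.10 to 2.67 CPM elsewhere. In bulk RNA, fewer cells of a type and less transcript per cell cannot be told apart.

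The promoter windows of the members whose response to the virus differed between the sexes are shown here, each running from 250 bases before to 50 bases after the gene's start (RefSeq, GRCm38.p6, sense strand, 5′ to 3′). Capitals mark GGCGCC, a GC-rich sequence bound by BMP SMADs. The window of Bmpr1a lies at chr14:34502497-34502796 on the minus strand, that of Bmpr2 at chr1:59764029-59764328 on the plus strand, that of Grem1 at chr2:113758599-113758898 on the minus strand and that of Id3 at chr4:136143572-136143871 on the plus strand.
Bmpr1a: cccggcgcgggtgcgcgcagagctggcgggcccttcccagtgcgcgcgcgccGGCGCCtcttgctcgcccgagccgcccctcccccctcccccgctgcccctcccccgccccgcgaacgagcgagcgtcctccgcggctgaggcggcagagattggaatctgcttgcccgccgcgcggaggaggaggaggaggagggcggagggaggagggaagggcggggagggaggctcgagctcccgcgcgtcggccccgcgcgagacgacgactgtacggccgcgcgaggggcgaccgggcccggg
Bmpr2: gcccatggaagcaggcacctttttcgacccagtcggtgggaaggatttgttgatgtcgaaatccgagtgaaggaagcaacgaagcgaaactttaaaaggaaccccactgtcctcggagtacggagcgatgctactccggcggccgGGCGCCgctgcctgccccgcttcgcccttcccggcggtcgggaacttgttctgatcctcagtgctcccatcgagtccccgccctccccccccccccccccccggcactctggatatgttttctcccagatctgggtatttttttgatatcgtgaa
Grem1: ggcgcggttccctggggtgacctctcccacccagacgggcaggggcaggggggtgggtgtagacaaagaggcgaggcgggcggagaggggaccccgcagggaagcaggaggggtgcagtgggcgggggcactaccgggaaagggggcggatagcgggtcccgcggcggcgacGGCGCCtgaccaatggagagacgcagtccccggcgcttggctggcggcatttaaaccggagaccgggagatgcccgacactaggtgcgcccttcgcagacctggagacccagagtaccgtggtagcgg
Id3: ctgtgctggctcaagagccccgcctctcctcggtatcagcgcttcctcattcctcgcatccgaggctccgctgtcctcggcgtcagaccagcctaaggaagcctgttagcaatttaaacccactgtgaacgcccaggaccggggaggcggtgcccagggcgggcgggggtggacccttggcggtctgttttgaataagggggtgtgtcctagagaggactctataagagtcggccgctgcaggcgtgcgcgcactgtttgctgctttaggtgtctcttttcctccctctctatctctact

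Both receptor windows and the Grem1 window held GGCGCC once, its first base lying 198 bases before the start in Bmpr1a, 105 in Bmpr2 and 78 in Grem1, and the Id3 window did not hold it. GGCGCC reads the same on both strands and is in 11.9% of 32851 windows of this length. The bases of the Bmpr1a window were 79.3% G or C and those of Grem1 70.7%, against 60.0% in Id3 and 59.3% in Bmpr2. Windows were at hand for 7 of the 9 genes, those of Bmp4, Bmp6 and Id2 included; Bmp2 and Id1 are named only. Of these 3, Id2 held GGCGCC once, 231 bases before the start, and Bmp4 and Bmp6 did not hold it. The shorter SMAD motif GTCT, searched on both strands, was found in all but the Bmpr2 window and is in 88% of all windows. The E-box CANNTG, the kind of site that the bHLH partners of Id proteins bind, occurred 3 times in the Bmp4 window, 2 times in Bmp6 and once in Id2. It is in 72.3% of all windows. These are matches of letters and not measured sites.

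Has2 checked the label of the virus. The GFP libraries of replicates 1 to 4 held 25.2, 7.36, 18.3 and 21.3 CPM, and the Has2 libraries 9533, 8406, 3209 and 4860 CPM. The groups were far apart, and the male Has2 libraries held less than the female ones. The log2 fold change was 8.46 (SE 0.55, adjusted p = 0.0226 by edgeR's quasi-likelihood test with the replicate number as a block). The adjusted p was 0.0844 without replicate 1, where the log2 fold change was 8.45. Viral and endogenous transcripts are counted together. Has2 was the 1 gene called at an adjusted p under 0.05, which is 0.0066% of the genes tested.

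None of the 9 BMP genes was called for the virus, and 6 had a lower and 3 a higher estimate. Over all genes tested 8296 were lower and 6854 higher. At an unadjusted p under 0.05 the same test gave 1134 of 15150 genes and none of the 9. For 7 of the 9 the 95% interval of the fold change lay within 2-fold in either direction, and the exceptions were Bmpr1a and Bmpr2. Between genes, levels per kilobase of the longest transcript differed much more than between viruses. Id3 was highest at a mean of 259 CPM per kb and lay above the other 8 genes in every library. Id1 at 32.2, Id2 at 17.5, Bmpr1a at 15.8 and Bmp6 at 15.6 CPM per kb followed, and these neighbours overlapped between libraries. Below them came Bmpr2 at 7.24, Bmp4 at 4.53, Grem1 at 2.25 and Bmp2 at 1.03 CPM per kb, again with overlap between neighbours.

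**Figure D1:**
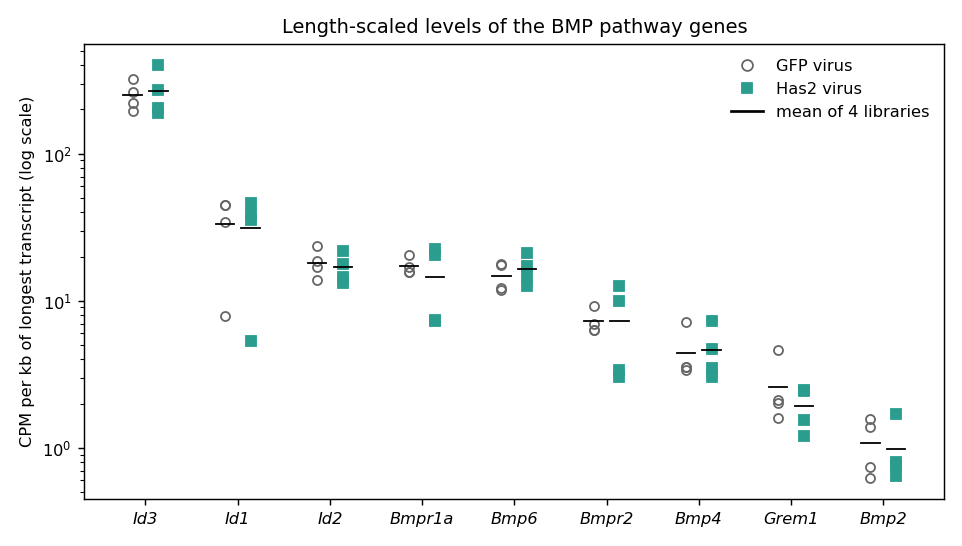
Level of each BMP gene in CPM per kb of its longest transcript, on a log axis, with 1 point per library (open circles, GFP virus, squares, Has2 virus) and a line at the mean of 4 libraries. Id3, at a mean of 259 CPM per kb, lies above all others, Id1 has 1 low library in each group, and the Has2 points of Bmpr1a and Bmpr2 split to either side of the GFP points.

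Among the ligands, Bmp6 was the most abundant of the 3 and Bmp2 the least. Bmp6, known in mice above all as the signal by which liver endothelium raises hepcidin, was at 63.6, 62.5, 42.6 and 43.8 CPM in the GFP libraries of replicates 1 to 4 and at 62.4, 75.4, 53.0 and 45.0 CPM in the Has2 libraries. Female libraries were above male ones in both groups, and the viruses overlapped. Its log2 fold change was 0.15 (SE 0.10, adjusted p = 0.681, edgeR, replicate block), with a 95% interval of 0.935- to 1.32-fold. Bmp4, a ligand of cardiac mesoderm and of the outflow tract, was at 14.9, 7.32, 7.29 and 7.00 CPM with GFP and at 15.1, 9.75, 6.26 and 7.23 CPM with Has2. Replicate 1 was the high one under both viruses, and the other libraries lay close together. The log2 fold change was 0.06 (SE 0.14, adjusted p = 0.911, edgeR), with an interval of 0.836- to 1.31-fold. Bmp2, which in the embryonic heart starts cushion formation, was at 5.58, 2.63, 2.21 and 4.91 CPM with GFP and at 6.07, 2.69, 2.28 and 2.83 CPM with Has2. The pairs of replicates 1, 2 and 3 differed little between viruses, and replicate 4 was lower with Has2, at a log2 ratio of -0.79. The log2 fold change was -0.15 (SE 0.19, adjusted p = 0.833, edgeR), with an interval of 0.658- to 1.24-fold. The endothelial marker list was highest in replicate 1, as Bmp2 was. It summed to 47.9 and 47.8 CPM there, against 25.2 to 31.9 CPM in the other libraries. Bmp4, Id2, Bmpr1a and Bmpr2 were also highest in replicate 1 under both viruses. The part of endothelial cells in the Bmp2 level was not tested.

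Grem1 was low and differed in direction between the pairs. Its levels were 8.35, 6.64, 8.72 and 19.3 CPM with GFP and 10.3, 6.36, 4.98 and 10.1 CPM with Has2. The GFP library of replicate 4 was the highest of the 8, and both male pairs were lower with Has2. Over all pairs the log2 fold change was -0.38 (SE 0.23, adjusted p = 0.660, edgeR), with an interval of 0.532- to 1.12-fold. The interval holds both no change and a fall of close to 2-fold.

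The receptors were steady among the GFP libraries and split among the Has2 libraries. Bmpr1a, the type I receptor also called ALK3, was at 122, 93.2, 94.0 and 101 CPM with GFP. With Has2 it was at 135 and 122 CPM in the female and at 43.1 and 44.2 CPM in the male replicates. Both male Has2 libraries lay below all others, and both female ones above their own GFP partner. Bmpr2, the type II receptor whose human mutations cause pulmonary arterial hypertension, was at 119, 81.9, 82.2 and 90.1 CPM with GFP. In the Has2 libraries it was at 164 and 128 CPM in females and at 39.3 and 43.6 CPM in males. It showed the same split. The means were 102 ± 13.3 and 86.0 ± 49.2 CPM for Bmpr1a and 93.3 ± 17.5 and 93.6 ± 62.0 CPM for Bmpr2 (SD, n = 4 libraries, GFP then Has2). The log2 fold changes over all pairs were -0.44 (SE 0.30, adjusted p = 0.677) and -0.25 (SE 0.33, adjusted p = 0.836, edgeR). Their intervals, 0.452- to 1.20-fold and 0.488- to 1.45-fold, were wider than those of the other 7, and the estimate of Bmpr2 was 0.01 without the replicate block. Leaving out replicates or single libraries moved the estimate of Bmpr1a from -0.73 (without replicate 2) to -0.03 (without the Has2 library of replicate 3), and it was -0.17 with a trend of GC content and length removed.

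The Id genes, the nearest readout of the pathway here, did not move together with the virus. Id1 was at 51.9, 9.18, 52.2 and 40.0 CPM with GFP and at 41.0, 6.14, 53.3 and 45.4 CPM with Has2. Both libraries of replicate 2 were far below the rest. The mean of the preparations ranged from 7.66 to 52.8 CPM, a 6.89-fold span, while the largest difference within a pair was 1.50-fold. Its log2 fold change was -0.17 (SE 0.15, adjusted p = 0.733, edgeR), with an interval of 0.700- to 1.13-fold. Id2 was at 46.2, 27.2, 33.2 and 36.5 CPM with GFP and at 43.2, 28.5, 26.2 and 34.9 CPM with Has2. Replicate 1 was highest under both viruses. Its log2 fold change was -0.11 (SE 0.11, adjusted p = 0.766, edgeR), with an interval of 0.780- to 1.10-fold. Id3 was at 336, 250.02, 410.5 and 283 CPM with GFP and at 240.2, 261, 516 and 347 CPM with Has2. It was lower with Has2 in replicate 1, nearly level in replicate 2 and higher in both male pairs, and the groups overlapped. Its log2 fold change was 0.05 (SE 0.15, adjusted p = 0.939, edgeR), with an interval of 0.811- to 1.32-fold. The macrophage list, like Id2, was lowest in replicate 2 among the GFP libraries, at 667 CPM against 1110 to 1569 CPM. Id1, Id3, Grem1, Bmpr1a and Bmpr2 were also lowest in replicate 2 among the GFP libraries. With Has2 the list was lowest in replicate 2, at 660 CPM, and Id2 in replicate 3; the part of these cells in the Id2 level was not tested.

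**Figure D2:**
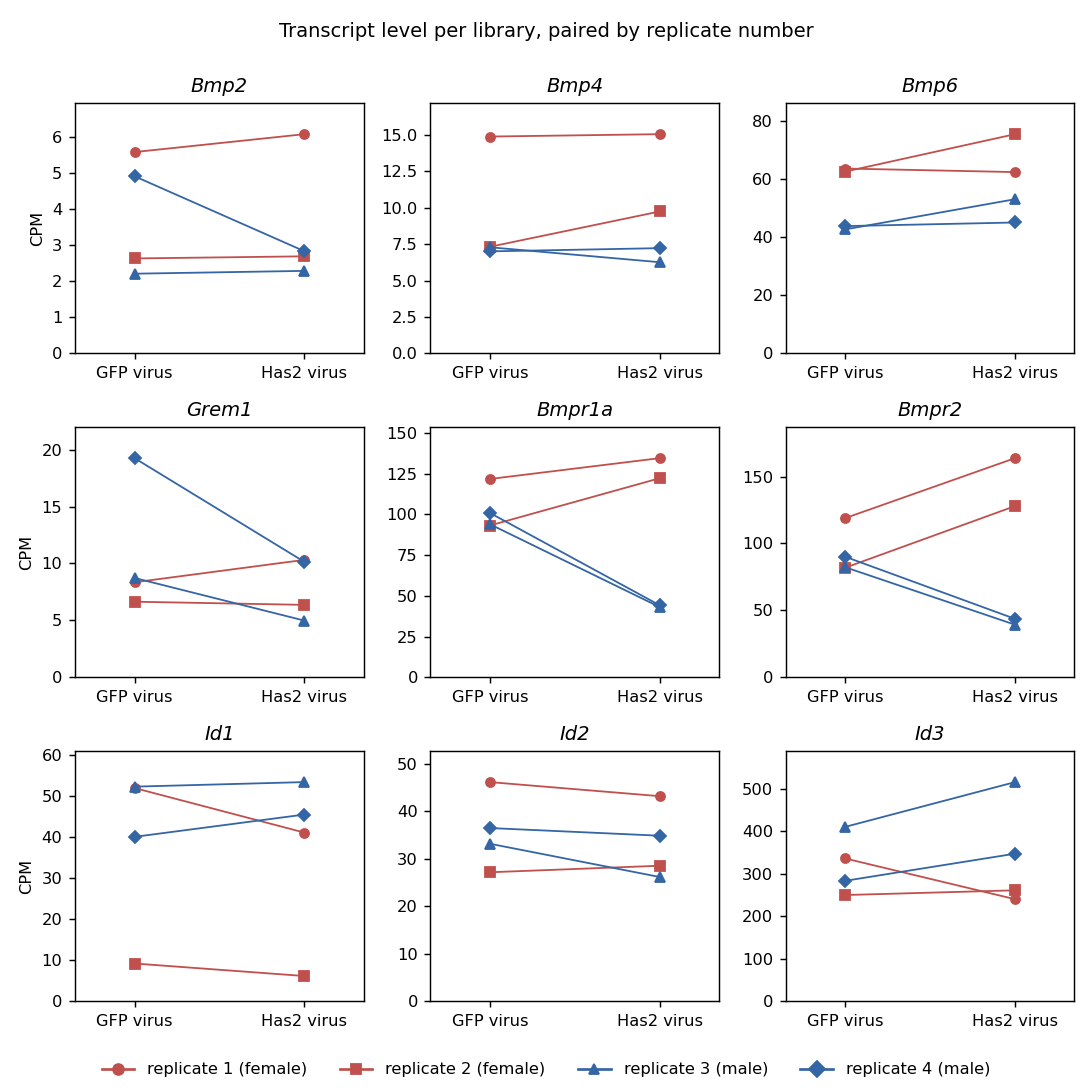
Transcript level of each BMP gene in CPM (vertical axes start at 0) for the GFP and Has2 virus, with a line joining both libraries of a replicate number (red, female, blue, male). The lines of Bmpr1a and Bmpr2 rise in both female pairs and drop in both male pairs, while for Id1 the pair of replicate 2 stays low under both viruses, at a mean of 7.66 CPM.

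For all 9 genes the highest preparation was at least 1.55 times the lowest, averaged over both viruses. The span was 2.59-fold for Bmp2, 2.33-fold for Bmpr2, 2.26-fold for Grem1, 2.21-fold for Bmp4, 1.87-fold for Bmpr1a, 1.81-fold for Id3, 1.60-fold for Id2 and 1.55-fold for Bmp6. The receptors and Grem1 also differed much within pairs, by up to 2.28-fold for Bmpr1a, 2.09-fold for Bmpr2 and 1.90-fold for Grem1. For Id1, Bmp4 and Bmp6 the largest difference within a pair was 1.50-, 1.33- and 1.24-fold.

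The design holds 2 pairs of each sex, so the response of males was compared with that of females in the blocked fit. The response differed for 5 of the 9 genes at an adjusted p under 0.05 (edgeR). Over all genes 29.5% were called in this comparison, 18% lower in males and 11.5% higher. The Has2 response itself was smaller in males by 1.66 on the log2 scale (male minus female difference -1.66, adjusted p = 0.00844, edgeR). Has2 has 40.6% GC, and with a trend of GC content and length removed from each library its difference was -0.84 (adjusted p = 0.218, edgeR).

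Grem1, Bmpr1a and Bmpr2 were among the genes with a lower response in males. Bmpr2 had a log2 fold change of 0.55 (SE 0.09) in females and -1.06 (SE 0.09) in males, a male minus female difference of -1.61 (SE 0.12, adjusted p = 3.86e-05, edgeR). Bmpr1a had 0.27 (SE 0.09) and -1.16 (SE 0.09), a difference of -1.43 (SE 0.13, adjusted p = 4.18e-05, edgeR). Both receptors therefore had an opposite sign of the estimate in the sexes. Grem1 had 0.13 (SE 0.13) and -0.87 (SE 0.13), a difference of -1.004 (SE 0.18, adjusted p = 0.00205, edgeR).

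Id1 and Id3 had a higher response in males. Id1 had a log2 fold change of -0.44 (SE 0.10) in females and 0.11 (SE 0.09) in males, a difference of 0.54 (SE 0.14, adjusted p = 0.0131, edgeR). Id3 had -0.21 (SE 0.12) and 0.31 (SE 0.12), a difference of 0.52 (SE 0.17, adjusted p = 0.0400, edgeR). The call of Id3 was lost when replicate 1, 3 or 4 was left out (adjusted p = 0.199, 0.148 and 0.0884, edgeR), and that of Id1 without replicate 4, where 2353 genes of the table and 3 of the 9 were called. For Bmp2, Bmp4, Bmp6 and Id2 the differences were -0.49, -0.29, 0.06 and -0.19, with adjusted p from 0.234 to 0.812 (edgeR). The Bmp2 difference rested on replicate 4, without which it was -0.00049, against -0.87 without replicate 3. Without the replicate block no gene of the table was called for this difference (0% of 15150, with 2014 at an unadjusted p under 0.05). The differences of Bmpr1a and Bmpr2 were then -1.42 and -1.59, as large as with the block, at an adjusted p of 0.150 (edgeR).

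**Figure D3:**
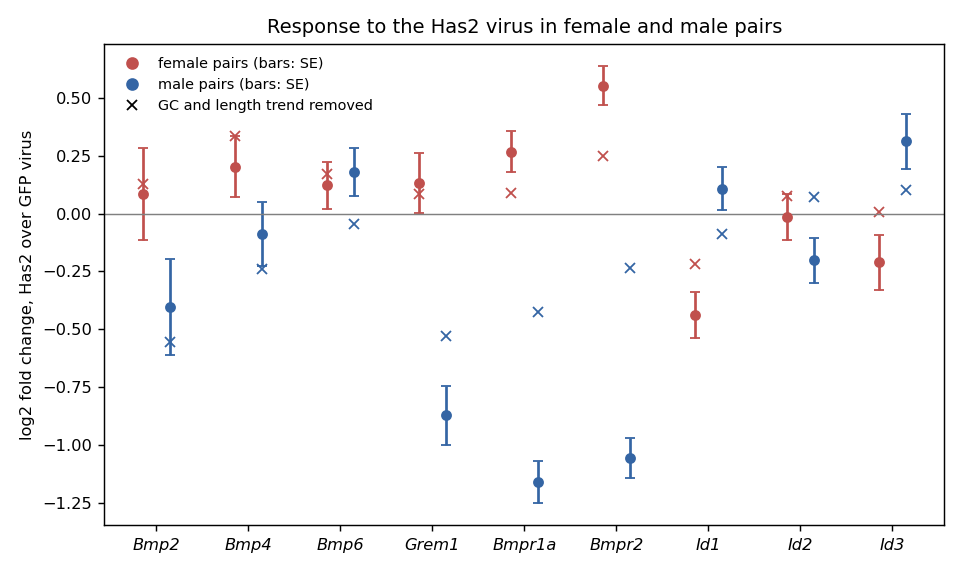
Log2 fold change of Has2 over GFP virus in the 2 female pairs (red) and the 2 male pairs (blue), with bars of 1 SE from the blocked fit; crosses give the estimate after the trend with GC content and length was removed. Bmpr1a and Bmpr2 lie above 0 in females and at -1.16 and -1.06 in males, and the crosses of both are closer together, while Id1 and Id3 lie lower in females.

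Across all genes the male response followed base composition. The rank correlation between a gene's log2 ratio and the GC content of its longest transcript, across 15123 genes, was 0.66 for replicate 3 and 0.64 for replicate 4, both male, and -0.22 and -0.17 for the female replicates. These describe the libraries, and genes are not independent replicates. Among genes of at most 42% GC the median male minus female difference was -0.96 and 65.8% were called, and among genes above 54% GC it was 0.30 with 24.0% called. Bmpr1a at 41.3% GC and Bmpr2 at 41.0% were in the lowest class, and their differences of -1.43 and -1.61 were below its median. Grem1 at 44.7% GC and Id2 at 45.1% were in the class from 42% to 46%, with a median of -0.41. Id1 at 54.7% GC and Id3 at 55.6% were in the highest class, and Bmp6 at 57.8% had a difference of 0.06 there. Bmp2 and Bmp4, both at 52.5% GC, had negative differences in a class whose median was 0.17.

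After the trend with GC content and length was removed from each library, 10.6% of all genes and 2 of the 9 were called, Bmpr1a and Bmpr2. Their differences were then -0.52 (adjusted p = 0.0140) and -0.48 (adjusted p = 0.0172, edgeR), from 0.09 and 0.25 in females and -0.43 and -0.23 in males. Grem1 was at -0.61 (adjusted p = 0.0544), Id1 at 0.13 (adjusted p = 0.523) and Id3 at 0.10 (adjusted p = 0.790, edgeR). Among genes of at most 42% GC, 24.9% were still called after this step, against 2.28% of genes above 54% GC. What gave the male Has2 libraries their trend was not tested.

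**Figure D4:**
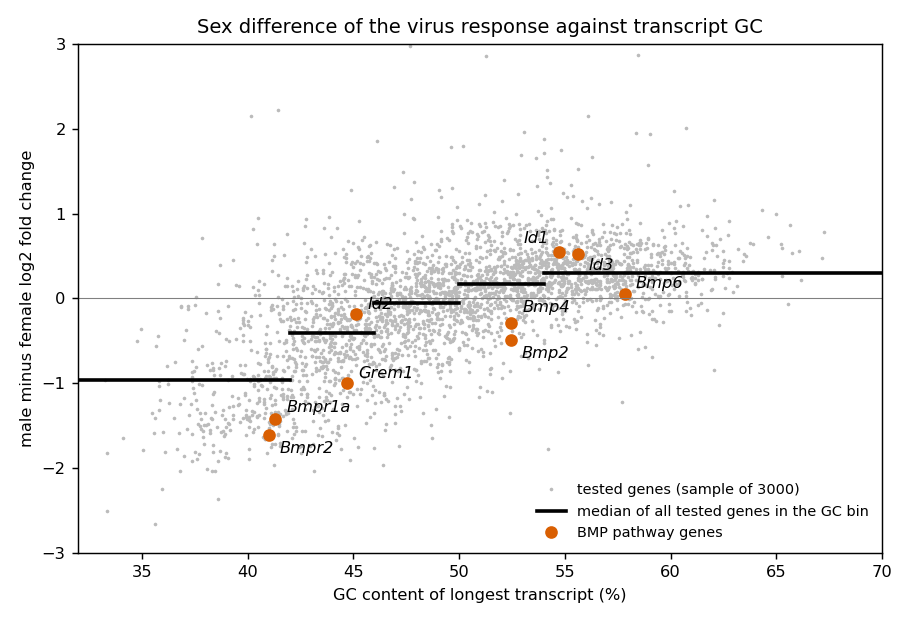
Male minus female difference of the log2 fold change (vertical axis, drawn from -3 to 3) against GC content of the longest transcript (%), with grey points for a sample of 3000 tested genes, black lines for the median of all tested genes in each GC class, and orange points for the 9 BMP genes. The medians climb from -0.96 to 0.30, with Bmpr1a and Bmpr2 at the low end and Id1 and Id3 at the high end.

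The wider pathway was read from 6 lists of known genes, which hold 87 genes with each counted once, 72 of them tested. None was called for the virus. For the difference between sexes 15 were lower and 7 higher in males, 30.6% of those tested, against 29.5% of all genes. After removal of the GC and length trend 7 were called, 9.72% against 10.6%. The 15 had a GC content of 39.9% to 50.3% and the 7 of 44.0% to 61.1%.

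Of 15 BMP ligands 8 were tested, with 4 estimates above and 4 below 0, a median log2 fold change of -0.07 for the virus and no call in either comparison. The median of all genes was -0.02. Bmp5, Bmp8a and Bmp3 had the smallest p, with log2 fold changes of -0.63, 0.62 and -0.42 (adjusted p = 0.648, 0.651 and 0.657, edgeR), and each was under 1 CPM on average. Gdf6, a ligand of joint and eye development that was picked after its values were seen, was the most abundant of the list at 99.4 CPM per kb, with a log2 fold change of 0.00 (SE 0.09, adjusted p = 0.989, edgeR).

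Of 12 receptors and co-receptors 11 were tested, at a median of -0.02 for the virus. For the difference between sexes 4 were lower in males, Acvr2a (-0.99, adjusted p = 0.000886) and Bmpr1b (-1.23, adjusted p = 0.0299, edgeR) beside the pair described above, and 1 was higher. Acvr2a is a type II receptor for activins and BMPs, and Bmpr1b is the type I receptor known from cartilage. The higher one was Bambi, a pseudoreceptor without a kinase, at 0.51 (adjusted p = 0.0375), which became 1.09 (adjusted p = 0.00375, edgeR) with the GC and length trend removed. Bambi, at 44.0% GC, had this positive difference in a class whose median was -0.41. Acvr2a, at 39.9% GC, went from -0.99 to 0.02 (adjusted p = 0.952, edgeR) and Bmpr1b from -1.23 to -0.45 (adjusted p = 0.499, edgeR). None was called for the virus, where the smallest p belonged to Rgma, a co-receptor, at 0.19 and Acvr1, the type I receptor ALK2, at 0.16. Bmpr1a at -0.44 and Acvr2a at -0.31 came next, ahead of Acvr2b at 0.32 (adjusted p from 0.650 to 0.689 for these genes, edgeR). Rgma was called for the difference between sexes only with the trend removed, where it went from -0.15 to -0.45 (adjusted p = 0.0209, edgeR).

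Of 19 extracellular antagonists and modulators 15 were tested, at a median of -0.03 for the virus and -0.03 for the difference between sexes. Lower in males were Grem1, Tll1 (-0.94, adjusted p = 0.000478), a protease that cleaves chordin, Twsg1 (-0.68, adjusted p = 0.00306), a chordin partner, and Crim1 (-0.72, adjusted p = 0.00759, edgeR), which binds BMPs at the cell surface. Nbl1, an antagonist of the gremlin family, was higher by 0.64 (adjusted p = 0.00273, edgeR). Nbl1 and Twsg1 were not called with that trend removed (0.20 and -0.36, adjusted p = 0.269 and 0.0694, edgeR). Tll1 and Crim1 were still called with the trend removed (-0.70 and -0.59, adjusted p = 0.00827 and 0.0177, edgeR). Fstl3, which binds activins, had the smallest p for the virus here, at 0.24, followed by Tll1 at -0.49 (adjusted p = 0.648 for each, edgeR). Among genes not called for the difference between sexes, Tll2 at 1.00 and Bmp1, a protease, at 0.09 came after Fstl3 (adjusted p = 0.650 and 0.777, edgeR).

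All 14 SMADs and regulators were tested, at a median of 0.07 for the virus with 9 estimates above 0, against 6854 of 15150 over all genes. In males 3 were lower, Skil (-1.12, adjusted p = 9.22e-05), a SMAD co-repressor, Smurf2 (-0.50, adjusted p = 0.00918), a ubiquitin ligase of the pathway, and Smad5 (-0.40, adjusted p = 0.0482, edgeR). With the trend removed none of these was called, and Skil, Smurf2 and Smad5 were at -0.14, -0.19 and 0.24 (adjusted p = 0.412, 0.263 and 0.216, edgeR). Ppm1a, named here outside the rule, was called only with the trend removed. Its difference went from -0.02 to 0.75 (adjusted p = 0.00319, edgeR). Ski and Smad9 had the smallest p for the virus, at 0.21 and 0.42 (adjusted p = 0.648 for each, edgeR). Skil at -0.39 and Smurf1 at 0.12 followed (adjusted p = 0.661 and 0.690, edgeR).

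The 18 target genes of BMP SMADs, which include the Id genes, were all tested. For the virus 11 estimates were above 0, against 6854 of 15150 over all genes, and the median was 0.10. Alpl, the alkaline phosphatase of mineralising cells, and Atoh8, a bHLH factor, were each at 0.31 and higher with Has2 in 4 of 4 pairs, with adjusted p = 0.648 (edgeR). Smad9, Smad7 and Id4 were also higher in 4 of 4 pairs, and the share of all genes with this pattern was not counted. Between sexes 2 were lower in males, Runx2 (-0.53, adjusted p = 0.0126), a factor of bone formation, and Tnfrsf11b (-0.51, adjusted p = 0.0247, edgeR), the decoy receptor osteoprotegerin. Higher were Id1, Id3, Bambi and Msx1 (0.46, adjusted p = 0.0480, edgeR), a homeobox factor. Of these 6 only Bambi was called with that trend removed, where Runx2 was at -0.37, Tnfrsf11b at -0.035 and Msx1 at 0.075 (adjusted p = 0.0865, 0.916 and 0.798, edgeR).

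Of 13 bHLH partners of Id proteins 10 were tested, at a median of 0.03 for the virus. The E protein genes differed among themselves between the sexes. Tcf4 (-0.92, adjusted p = 0.000355) and Tcf12 (-0.76, adjusted p = 0.00241) were lower in males, and Tcf3 (0.36, adjusted p = 0.0397, edgeR) was higher. Twist2, a bHLH factor of mesenchyme, was also higher (0.61, adjusted p = 0.0107, edgeR). Tcf4 and Tcf12 had 40.9% and 44.4% GC and Tcf3 had 61.0%, and with the trend removed the 3 were at 0.15, -0.12 and 0.01. Twist2 was then at 0.36 (adjusted p = 0.126, edgeR), and none of the list was called. For the virus, Bhlhe40, Tal1 and Tcf4 had the smallest p, at 0.15, 0.28 and -0.27, followed by Hand2 at 0.15 (adjusted p = 0.651 to 0.725, edgeR).

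Among themselves the 9 genes did not form 1 pattern over the 8 libraries, whose values share preparations. Log2 CPM of Bmpr1a and Bmpr2 had a Pearson correlation of 0.98. The 3 Id genes were loosely tied, at 0.60 for Id1 and Id3, 0.52 for Id1 and Id2 and -0.26 for Id2 and Id3. Bmp2 and Id2 were at 0.86, Bmp4 and Bmpr2 at 0.79 and Bmpr2 and Id3 at -0.73. The GC and length trend was not removed for these correlations.

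The genes whose level was most like that of each member were also listed, by Pearson correlation of log2 CPM over the 8 libraries among genes of at least 5 CPM. Log2 CPM was not corrected for the GC trend here. For Bmpr1a they were Tnpo1, Usp33 and Zfp266, each at 1.00, and for Bmpr2 Rora and Srpk2 at 1.00 and Alg10b at 0.99. Like both receptors these genes were low in GC, from 39.9% in Zfp266 to 43.0% in Usp33. The Has2 libraries of replicates 3 and 4 were lowest for all of these, as for Rora at 10.3 and 11.2 CPM against 22.4 to 45.6 CPM elsewhere. For Id1 they were B4galt5, Hes1 and Ier2, each at 0.99. Hes1, the Notch target, was at 21.6 and 20.0 CPM in replicate 2 and at 52.7 to 67.5 CPM elsewhere, and Ier2, an immediate early gene, at 15.6 and 9.36 CPM against 44.8 to 63.7 CPM. These genes shared the low replicate 2 of Id1, and they were picked for their likeness to Id1 over the same libraries. For Id3 they were Cebpa at 0.99, Tmem37 at 0.97 and Cdc42ep4 at 0.95, and for Id2 Rapgef5 at 0.98, Cav1 at 0.97 and Cybb at 0.96. For Grem1 they were Kif4 at 0.98, Hsp90b1 at 0.96 and Zwilch at 0.96. The ligands had Ptprb at 0.97, Ets1 at 0.96 and Ptprj at 0.96 for Bmp2, Adm at 0.96, the antagonist gene Fst at 0.96 and Lrch1 at 0.95 for Bmp4, and Idua, Nfe2l1 and Susd6 at 0.99 for Bmp6.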

How the data were processed

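Messenger RNA of 8 cultures was sequenced from stranded libraries, per the labels' protocols. The authors deposited 1 table of raw counts, with a row per Ensembl gene. Per the submitters' processing notes FastQC 0.10.1 and HTSeq 0.10.0 were used on mm39 (GRCm39). Aligner, annotation release and strand setting were not given in the sources used here, so reads of overlapping or near-identical genes may be divided in an unknown way.

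Symbols, transcript length and GC content came from GENCODE M21 (GRCm38), which matched 52081 of 55414 identifiers, and GC content and length were had for 99.8% of tested genes. Identifiers with no symbol held 0.405% to 0.871% of a library's counts and stayed in. Promoter windows came from RefSeq (GRCm38.p6).

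Counts were tested with edgeR 4.0.16 (R 4.3.3), quasi-likelihood F-test, TMM scaling, filterByExpr, the replicate number as a block, and Benjamini-Hochberg adjustment over 15150 genes at 0.05. The median SE was 0.144 (log2) for the virus and 0.160 for the difference between sexes. The block follows the preparation identifier that both libraries of a number share in the labels; within a number, the libraries' departures from their group means correlated at 0.58, 0.62, 0.53 and 0.44. The male minus female difference of the virus effect used the same block. CPM are TMM-scaled, log2 CPM has a prior count of 2, and the GC and length correction removed a spline of 5 degrees of freedom for each from every library. Both tests were checked on simulated counts with planted changes. The simulated counts held no GC trend between the viruses, so the check does not cover calls that follow that trend.

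Alternatives were fits with no block, RLE scaling, library totals, TMM without Has2, other filters, DESeq2 1.42.0, limma-voom 3.58.1, the correction, and leaving out replicates or libraries. Named are the 9 members, in each pathway list up to 6 called genes and the 3 others of smallest p for the virus, and the 3 genes most like each member; exceptions are marked. Members, lists, tests and alternatives were chosen with earlier results of these data known.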

Additional observations from a re-analysis of the deposited data

Results flagged for a closer look

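Of the 18 groups of 4 libraries, 9 genes under each virus, 3 held a library standing apart from the rest, where chance flags about 1 in 20. That rate is for independent groups, whereas the GFP and Has2 groups here share their preparations. The share of groups flagged over all genes tested was not counted, so whether these 9 genes held more such libraries than others was not tested. For Bmp4 the GFP library of replicate 1, at 14.9 CPM, was separated from the others by 0.960 of the group's range. For Bmp2 the Has2 library of replicate 1, at 6.07 CPM, was separated by 0.856 of the range. For Grem1 the GFP library of replicate 4, at 19.3 CPM, was separated by 0.835 of the range. The high libraries of Bmp4 and Bmp2 come from the same preparation, in which the partner library was also the highest of its group.

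The response to the virus differed between the sexes for 5 genes by the interaction test in edgeR with the replicate block, at male minus female log2 differences of -1.61 for Bmpr2, -1.43 for Bmpr1a, -1.004 for Grem1, 0.54 for Id1 and 0.52 for Id3. The table held 29.5% of genes called in this test. Once the trend with GC content and length was taken out, 10.6% of all genes were called. Among genes of at most 42% GC, the class of both receptors, 24.9% were called. Bmpr1a and Bmpr2 were called again, at smaller differences of -0.52 and -0.48, and Grem1, Id1 and Id3 were not. The sex of the animals and the preparation series cannot be told apart. The male Has2 libraries also held less Has2, at 3209 and 4860 CPM against 9533 and 8406 CPM in the female ones. The log2 ratios of the male pairs followed GC content, at rank correlations of 0.66 and 0.64 against -0.22 and -0.17. The part of each of these in the differences was not tested.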

How the results depend on the processing

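None of the 9 genes was called for the virus in any of the 22 alternatives that tested it; Bmp2, Bmp4 and Grem1 were not tested under the stricter filter. The count of all genes called was 0 with library totals, 118 with no filter, 0 with the stricter filter, 61 and 7 by DESeq2 with and without the replicate block, 2 with the GC and length trend removed and 0 to 1 when replicates or libraries were left out; the causes were not tested. Bmpr2 turned to 0.0058 with no replicate block, 0.023 by DESeq2 without it and 0.0087 with the trend removed, and Id2 to 0.075 and Bmp1 to -0.0037 with the trend removed. Over the leave-outs the log2 fold change ran from -0.55 to 0.11 for Bmp2, -0.22 to 0.44 for Bmp4, -0.61 to 0.040 for Grem1, 0.01 to 0.28 for Bmp6, -0.73 to -0.03 for Bmpr1a, -0.56 to 0.26 for Bmpr2, -0.40 to 0.28 for Id1, -0.25 to 0.061 for Id2, -0.18 to 0.26 for Id3, -1.34 to 0.056 for Bmp5, -1.22 to 0.39 for Bmp3, -0.20 to 0.83 for Alpl and -0.015 to 0.70 for Tal1. Most of these extremes came from dropping 1 library without the pairing.

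For the difference between sexes, genes called numbered 0 with no replicate block and 1610 with the trend removed, of which 0 and 2 were among the 9, and 2353 to 4972 in the leave-outs, of which 3 to 5 were among the 9. With the trend removed Bmp6 turned to -0.22, Acvr2a to 0.020, Smad5 to 0.24 and Tcf4 to 0.15. In the leave-outs Bmp2 ran from -0.87 to -0.00049, Bmp4 from -0.48 to -0.10, Bmp6 from -0.078 to 0.22 and Id2 from -0.30 to -0.05. Each sex has 2 pairs, and a leave-out compares 1 pair with 2. Low counts limit Bmp2, at 109 to 338 counts a library, and more so Bmp8a (4 to 24), Tll2 (3 to 22), Bmp3 (5 to 50), Bmp5 (9 to 69), Acvr2b (17 to 36) and Tal1 (25 to 94). They also limit Smad9 (59 to 214) and Bmpr1b (26 to 112), which was called for the difference between sexes.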

Other observations

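Several genes of the pathway lists that were not called for the virus or for the difference between sexes were far more abundant than the 3 BMP ligands, as seen after their values were known. Fstl1, a follistatin-like glycoprotein that binds BMP4 and is made by cardiac stroma, was at a mean of 981 CPM per kb, with a log2 fold change of -0.07 (adjusted p = 0.840; edgeR). Eng, the co-receptor endoglin, was at 180 CPM per kb and Acvrl1, the type I receptor ALK1, at 76.02 CPM per kb. Their log2 fold changes were 0.10 and 0.05 (adjusted p = 0.775 and 0.906; edgeR). Bmper, an extracellular BMP modulator, was at 35.2 CPM per kb, with a log2 fold change of -0.03 (adjusted p = 0.935; edgeR).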
